A study of Mus musculus with 6 samples.

Results

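The chains of the IL-4 receptor and the kinases and transcription factor that carry its signal were followed through single germinal centre (GC) B cells of mouse spleen. The 6 genes, Il4ra, Il2rg, Il13ra1, Stat6, Jak1 and Jak3, were taken by name from 14548 gene symbols listed in all 3 deposited count tables. All 6 are autosomal or X-linked genes of the mouse genome (RefSeq, GRCm38.p6). Il4ra lies on chromosome 7 (125552271 to 125579474) and Stat6 on chromosome 10 (127642955 to 127660987). Jak1 lies on chromosome 4 (101151974 to 101265282) and Jak3 on chromosome 8 (71676383 to 71690577). Il13ra1 (36112108 to 36171262) and Il2rg (101264385 to 101268255) lie on chromosome X.

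Mice were given NP-haptenated antigen in alum, and sorted spleen cells were sequenced with 10x 5′ droplet chemistry, in which a unique molecular identifier (UMI) marks each captured RNA molecule. At day 7, 2 libraries came from wild type B220+ CD38- GL7hi cells, and at day 14, 2 libraries from wild type B220+ CD95hi GL7hi IgD- cells. The other 2 libraries, also of day 14 and of the B220+ CD95hi GL7hi IgD- gate, came from irradiated hosts rebuilt with wild type marrow: 1 from Il4ra+/+ hosts (control) and 1 from Ccl19Cre/+ Il4raf/f hosts (KO). In the KO hosts the Cre is driven by Ccl19, a gene of lymphoid stromal cells, so the deletion concerns host stroma, and Il4ra in the sorted donor B cells does not check the host genotype. Host cells that survive irradiation keep the host genotype. The labels do not give the animals' ages or say that the libraries of a day are separate animals, so spread between them may be technical.

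The IL-4 receptor is built from the alpha chain (Il4ra), which binds the cytokine, and a second chain. In lymphocytes the second chain is usually the common gamma chain (Il2rg), shared with receptors for IL-2, IL-7, IL-9, IL-15 and IL-21, and in other cells it is more often Il13ra1, which also lets the receptor respond to IL-13. The kinases JAK1 and JAK3 sit on the chains and phosphorylate the alpha chain, where STAT6 docks, is phosphorylated and moves to the nucleus. In GCs, follicular helper T cells are a source of IL-4 for B cells in the light zone (LZ), where B cells are selected, whereas most division takes place in the dark zone (DZ).

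The bases before the start of each gene were read from RefSeq (GRCm38.p6), and the 3 receptor chains are shown because the results by cell cluster below turn on them. For Il4ra the stretch is chr7:125552021-125552119 on the plus strand, and it ends where the most upstream GENCODE start begins. A separate 30-base site of Il4ra, chr7:125552121-125552150 on the plus strand, lies just after that start. It is shown for the octamer in capitals, a motif bound by the transcription factors OCT1 and OCT2. For Il13ra1 the stretch is chrX:36111858-36112107 on the plus strand, with GC boxes in capitals. For Il2rg it is chrX:101268256-101268505 on the minus strand, read 5′ to 3′ along the gene, with none of the searched motifs.
Il4ra: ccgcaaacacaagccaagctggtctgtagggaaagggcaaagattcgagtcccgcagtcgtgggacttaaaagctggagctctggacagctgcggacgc
Il4ra octamer site: tggggtggggcATGCAAATaagccagcgat
Il13ra1: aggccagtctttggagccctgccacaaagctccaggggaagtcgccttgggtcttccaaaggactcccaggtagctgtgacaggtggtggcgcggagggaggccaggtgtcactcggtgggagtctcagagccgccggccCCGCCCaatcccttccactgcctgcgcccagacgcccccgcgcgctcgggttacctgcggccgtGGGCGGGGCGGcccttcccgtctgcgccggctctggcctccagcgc
Il2rg: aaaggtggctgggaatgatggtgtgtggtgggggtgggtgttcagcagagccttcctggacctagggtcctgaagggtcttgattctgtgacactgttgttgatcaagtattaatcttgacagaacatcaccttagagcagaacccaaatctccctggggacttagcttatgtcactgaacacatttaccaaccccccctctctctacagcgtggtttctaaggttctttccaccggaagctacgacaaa

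Among the 6 genes, the octamer ATGCAAAT (either strand) was found in the 250 bases before the RefSeq start of Il4ra alone, and 1.60% of 32851 RefSeq promoters of the same length hold it. Il13ra1 held the GC box GGGCGG 3 times on either strand, the last 2 matches overlapping by 1 base, and 32.7% of promoters hold at least 1. Il4ra, Jak1 and Jak3 held 1 match each, so 4 of the 6 windows held it. Palindromes of TTC and GAA with 4 bases between them (the form known for STAT6) or 3 (other STATs), searched on either strand, were in none of the 6 windows and in 5.85% and 7.02% of all. These are letter matches in short windows only.

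The libraries held 1012 and 2530 cells at day 7, 9109 and 10648 at day 14, and the chimaeras 8038 (control) and 7314 (KO), with 20339933 to 62202828 UMIs each. Cells were deepest at day 7 (median 17277.5 and 18233.5 UMIs) and shallowest at day 14 (3399 and 3178.5), with the chimaeras between (6676 and 7185.5). The 2 libraries of day 14 shared 135 cell barcodes, the chimaeras 90 and those of day 7 only 1. Summed markers of GC B cells ran from 6036 to 7390 CPM (defined next) over the 6 libraries, against 118 to 408 for naive follicular B cells, 144 to 227 for myeloid cells, 61.7 to 131 for T cells and 29.9 to 114 for stromal and follicular dendritic cells. Erythroid markers ran from 61.4 to 654, highest in the first day 7 library, and plasma markers from 911 to 3840. Levels here are CPM, a gene's UMIs divided by all UMIs of the 14548 shared symbols and scaled by 1000000, both summed over the cells of a library or subset. The shared symbols include no immunoglobulin gene. In such sums, fewer cells that express a gene and less RNA per cell cannot be told apart.

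Il4ra, the chain that binds IL-4, was detected in every library, with 73.8 and 53.3 CPM in the day 7 pair and 94.9 and 83.8 in the day 14 pair. The control chimaera had 56.1 and the KO chimaera 64.9. Both day 14 libraries stood above the other 4. Il2rg, the shared chain, had 165 and 176 CPM in the day 7 pair, 80.6 and 73.8 in the day 14 pair, and 203 (control) and 166 (KO) in the chimaeras. The wild type day 14 pair was the lowest, while the chimaeras of the same day and gate lay within or above the range of day 7.

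Il13ra1, the alternative second chain, was at 6.31 and 11.7 CPM at day 7, from 126 and 619 UMIs. At day 14 it was at 0.432 and 0.823, and in the chimaeras at 0.551 (control) and 0.207 (KO), from 12 to 33 UMIs a library. It was thus measurable mainly at day 7, and the floor of 3 UMIs corresponds to 0.0501 to 0.150 CPM.

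Stat6, the transcription factor, had 37.0 and 36.7 CPM in the day 7 pair, 43.6 and 44.7 in the day 14 pair, and 26.5 (control) and 23.4 (KO) in the chimaeras. Jak1 was nearly level, at 197 and 191, then 187 and 173, then 172 and 163 in the same order. Jak3, the kinase that pairs with the gamma chain, was at 39.7 and 46.7, then 32.3 and 34.1, then 21.9 and 16.3. For Stat6, Jak1 and Jak3 the chimaeras held the lowest values of the 6 libraries.

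**Figure D1:**
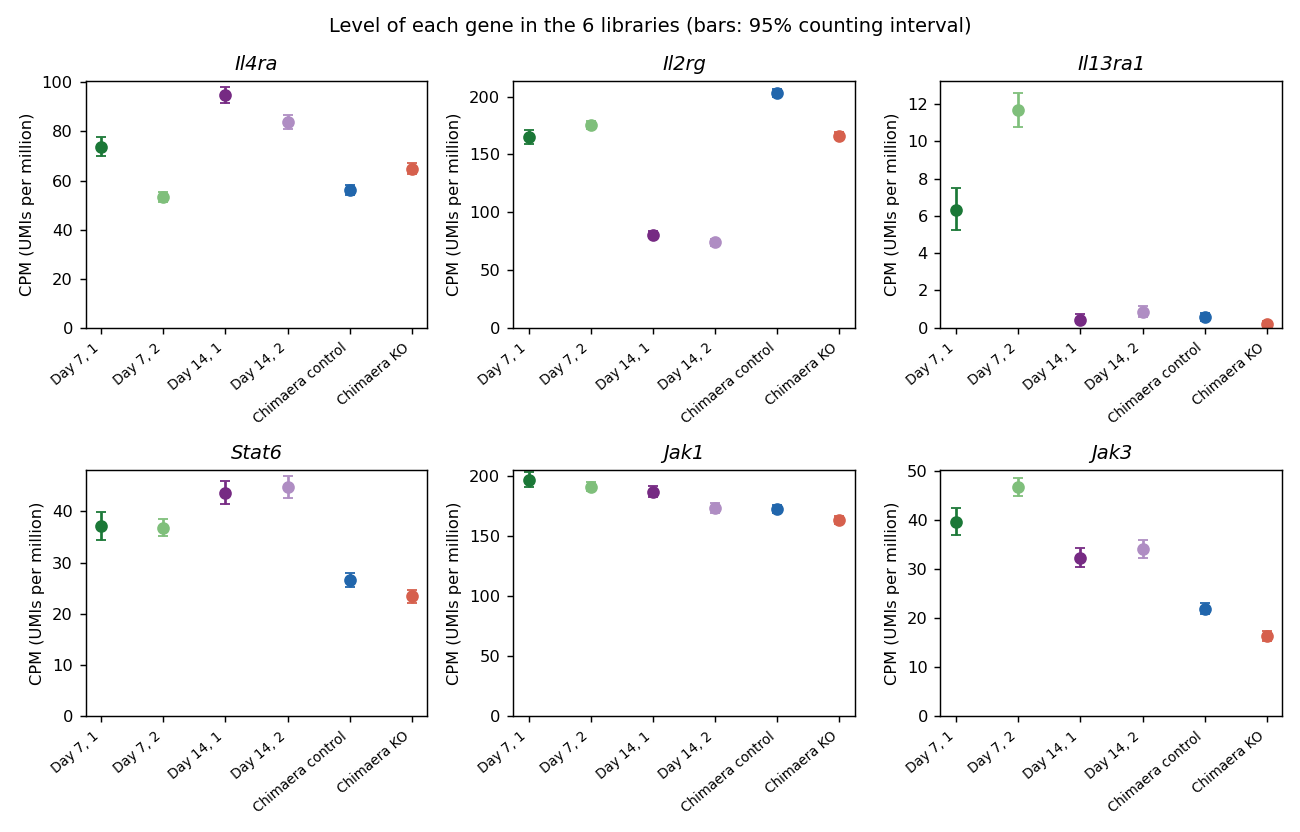
Level of each of the 6 genes (CPM, linear axis from 0) in the 6 libraries, with exact 95% Poisson intervals that cover counting error only. Il2rg is lowest in the 2 day 14 libraries (80.6 and 73.8), and Il13ra1 stands above 6 CPM only at day 7.

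Day 14 was compared with day 7 over 2 libraries each. Il2rg, Il13ra1, Jak1 and Jak3 were lower at day 14 and Il4ra and Stat6 did not pass the test. The sort gate, the depth and the construction of the tables changed together with the day, and these cannot be told apart. Of 11971 genes tested, 67.9% passed an adjusted p of 0.05 (edgeR quasi-likelihood test with Benjamini-Hochberg adjustment), 34.9% higher and 33.0% lower at day 14, so 4 of 6 is close to the share over all genes.

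Il2rg averaged 170 ± 7.43 CPM at day 7 and 77.2 ± 4.81 at day 14 (SD, n = 2), a log2 difference of -1.33 ± 0.08 (SE; edgeR adjusted p = 4.91e-05). The chimaera libraries of day 14, at 166 and 203, were not part of this test and did not share the low level. Jak3 averaged 43.2 ± 5.0 and 33.2 ± 1.22, a log2 difference of -0.58 ± 0.10 (edgeR adjusted p = 0.00347). With LZ cells alone it did not pass (-0.31, adjusted p = 0.0559).

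Jak1 averaged 194 ± 3.94 at day 7 and 180 ± 9.74 at day 14 (SD, n = 2), a log2 difference of -0.29 ± 0.07 (edgeR adjusted p = 0.00849). The groups did not overlap, but the call was lost without the second day 14 library (-0.23, adjusted p = 0.158), with G1 cells alone (-0.19, adjusted p = 0.0591) and without scaling beyond the totals (-0.11, adjusted p = 0.173). Il13ra1 averaged 8.98 ± 3.78 and 0.628 ± 0.277, a log2 difference of -4.04 ± 0.43 (edgeR adjusted p = 0.000343). Both libraries of each day reached the level of the filter on low counts (0.272 CPM) for this gene. Summed plasma markers moved with it, at 3840 and 3816 CPM at day 7 against 943 and 911 at day 14, and plasma-like cells were 4.84% and 3.99% of cells against 1.94% and 1.54%. At day 14 the plasma-like cells were those of cluster 9 (72 and 71) and of cluster 8 (105 and 93), whose class is less clear (below). Without the plasma-like clusters the log2 difference was -3.71 (edgeR adjusted p = 0.00294).

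Il4ra averaged 63.6 ± 14.5 at day 7 and 89.4 ± 7.87 at day 14, and both day 14 libraries were above both of day 7. The log2 difference was 0.32 ± 0.15 (edgeR adjusted p = 0.101). It passed without the first day 7 library (0.48, adjusted p = 0.00175), with DZ cells alone (0.39, adjusted p = 0.0212) and without scaling beyond the totals (0.50, adjusted p = 0.0317). Stat6 averaged 36.9 ± 0.221 and 44.2 ± 0.788, a log2 difference of 0.07 ± 0.06 (edgeR adjusted p = 0.365), and it passed only without scaling beyond the totals (0.26, adjusted p = 0.0127). That setting moved the median of all genes from 0.04 to 0.23, so relative to all genes Stat6 stayed close to the median in both, and with it 5110 genes were called higher and 3075 lower, against 4180 and 3947.

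The deposited clusters showed where in the GC each chain was high. Clusters were drawn from the same counts, so their levels are described without a test, over libraries with at least 50 cells of a cluster. Names ending in "-like" come from marker genes, and clusters without a clear class keep their number only. Levels of Il4ra and Il2rg followed each other only weakly: over 46 sums of a cluster in a library, centred within library, their log2 levels had a Pearson r of 0.30.

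Il4ra was highest at day 7 in cluster 3, at 142 and 136 CPM, against 25.5 to 60.5 elsewhere. Cluster 3 was led by haemoglobin genes, Klf2 and Il10ra and was left unnamed. All 5 erythroid markers were detected in it, with summed levels of 2582 and 1539 CPM against 13.3 to 99.3 in other clusters, and its summed GC B markers were 8498 and 8542. Of its cells 74.7% were called LZ, whereas erythroid markers at day 7 were higher in DZ cells (993 and 303 CPM) than in LZ cells (59.6 and 63.4). The part of this RNA in the Il4ra level was not tested.

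At day 14 Il4ra stood at 264 and 197 in cluster 8, from 105 and 93 cells, and next at 132 and 125 in the light zone-like cluster 1. Cluster 8 is plasma-like by 6 raised markers of 7, yet only 1 of them was among its 10 leading genes, and its summed GC B markers (11358 and 10954) were above those of the other plasma-like cluster (5605 and 4650). That cluster, number 9, held Il4ra at 53.1 and 41.4, the lowest mean at day 14, although its counting intervals (22.0 to 84.9) reach past those of the next, dark zone-like cluster 4 (57.1 and 53.7). In the chimaeras the light zone-like cluster was the highest in CPM, with 98.0 in the control and 99.8 in KO. Its cells were shallow, at a median of 3608 UMIs over both libraries. It held 22.8% (control) and 20.8% (KO) of Il4ra UMIs in 24.9% and 26.0% of cells, so it was not the highest per cell. Memory precursor-like cells held 17.1% and 18.7% in 16.2% and 12.9% of cells.

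The plasma-like cluster of the chimaeras held the least Il4ra, at 20.7 and 16.6 in control and KO, and that of day 7 was also lowest, at 25.5 in the library with enough cells. The same clusters held the least Stat6, at 11.7 at day 7 and 7.97 and 11.3 in the chimaeras, and the least Jak1, at 123 at day 7, 103 and 102 in day 14 cluster 9, and 85.6 and 81.0 in the chimaeras. Alpha chain, STAT6 and JAK1 transcripts were therefore all at their lowest in plasma-like cells of the second day 7 library and of the chimaeras. For Stat6 the first day 7 library differed less: its 49 plasma-like cells, 4.84% of cells, held 27 UMIs, 3.65% of the total. In the second, 3.99% of cells held 1.08%. Stat6 was highest in the MYC selected-like clusters of day 7 (52.5 and 43.5) and day 14 (55.8 and 67.6), the latter overlapping unnamed cluster 3 (52.2 and 57.6). In the chimaeras Stat6 CPM was highest in light zone-like cells (33.5 in control and 31.5 in KO), and MYC selected-like cells were lower (26.6 and 25.3). Set against the share of cells, this order was reversed. Light zone-like cells, 24.9% and 26.0% of control and KO cells, held 16.5% and 18.3% of Stat6 UMIs. MYC selected-like cells, 5.64% and 5.39% of cells, held 8.81% and 9.14%.

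In plasma-like cells Il13ra1 ran the other way. In the plasma-like cluster of day 7 it reached 107 CPM in the second library, and 79.0 from the 49 cells of the first, against 0.324 to 13.8 in the other day 7 clusters. Those cells made up 4.84% and 3.99% of the day 7 libraries and held 57.1% and 31.2% of their Il13ra1 UMIs. In the control chimaera 21 of 33 Il13ra1 UMIs (63.6%) lay in the plasma-like cluster, which held 3.58% of cells. In the KO chimaera it held 4 of 12, as many as the MYC selected-like cluster. At day 14 the level was highest in plasma-like cluster 9, at 15.6 and 9.55, from very few UMIs. Plasma-like cells there held 6 of 15 Il13ra1 UMIs in the first library and 4 of 32 in the second. Unnamed cluster 7 of the second library was at 6.77, above the mean of plasma-like cluster 8 (3.98).

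Il2rg was highest in memory precursor-like cells of the chimaeras, with 373 CPM (control) and 264 (KO). At day 14 the memory precursor-like cluster 6 (241 and 219) and cluster 8 (196 and 280) overlapped at the top. The lowest levels were in dividing cells, at 44.8 and 49.3 in the dark zone-like cluster of day 14 and at 88.9 and 85.8 in the histone-led cluster 4 of the chimaeras. At day 7 plasma-like (214), unnamed cluster 3 (195 and 228) and MYC selected-like cells (215 and 204) overlapped at the top, and the other 3 clusters overlapped below them (131 to 162). Jak3 at day 7 ran from 32.6 and 38.9 in cluster 3 to 58.3 in plasma-like cells. At day 14 it ran from 23.9 and 28.8 in the dark zone-like cluster to 41.5 and 71.2 in cluster 8, the latter from 11 and 17 UMIs. In the chimaeras the cluster means of Jak3 ran from 14.5 to 24.6, and each cluster overlapped the next in order.

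**Figure D2:**
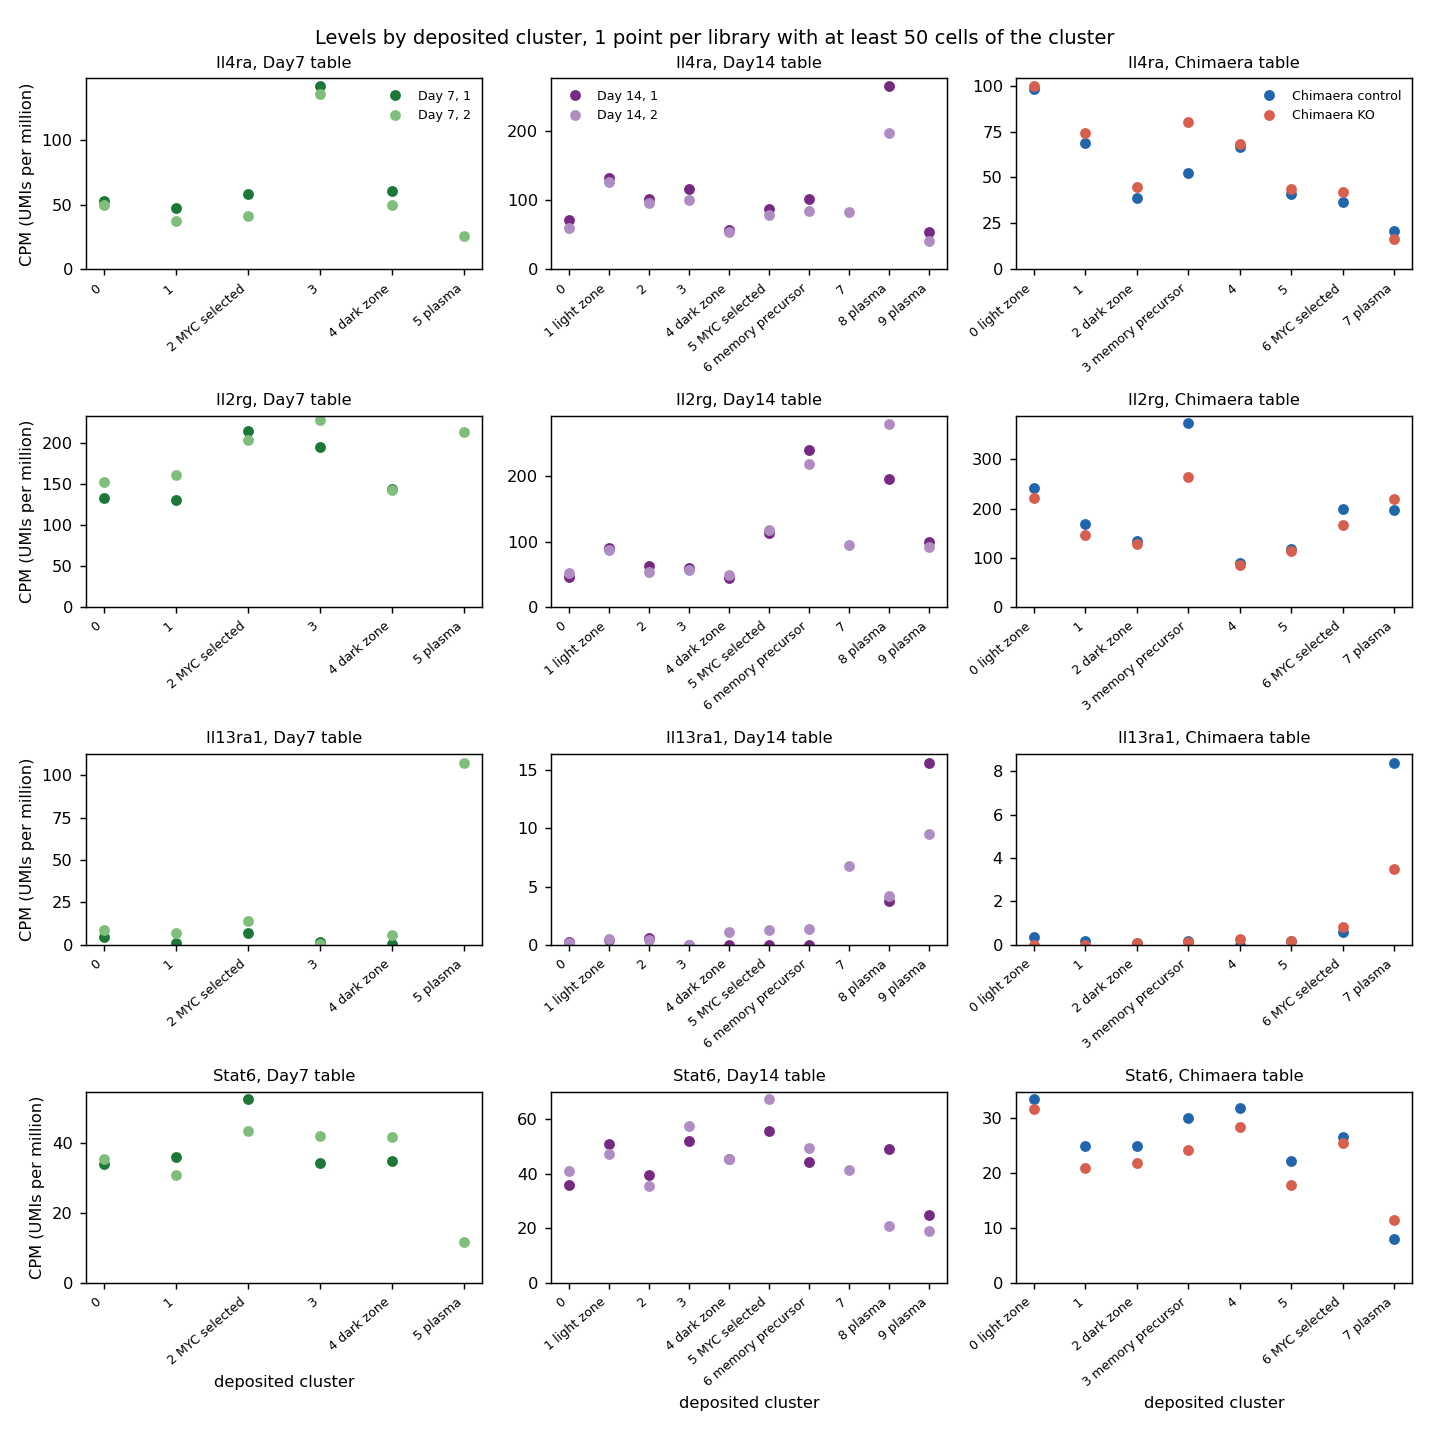
Level (CPM, linear axes from 0 that differ between panels) of Il4ra, Il2rg, Il13ra1 and Stat6 in each deposited cluster, 1 point per library with at least 50 cells of the cluster. Il13ra1 peaks in plasma-like clusters (107 at day 7), where Il4ra and Stat6 are low except in day 14 cluster 8 (Il4ra 264 and 197), and in the chimaeras Il2rg peaks in memory precursor-like cells (373 in control).

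The 3 genes whose pattern over those 46 sums was most like that of each member were taken among 5708 genes. For Il4ra they were Slc15a4 (r = 0.90), a lysosomal transporter of amino acids and peptides, Cd180 (0.90), a Toll-like receptor homologue of B cells, and Tmed8 (0.90). For Il2rg they were Pigx (0.88), an enzyme of GPI anchor synthesis, Cd52 (0.87) and the MHC class II gene H2-Aa (0.87). For Il13ra1 they were Phyh (0.87), 2610524H06Rik (0.86) and Slpi (0.86), the last a protease inhibitor used here as a plasma marker.

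For Stat6 the nearest were Arhgap26 (0.86), Trmt1 (0.84) and Pou2f2 (0.84), the gene of OCT2. For Jak1 they were the costimulator Cd86 (0.92), the NF-kB subunit gene Rel (0.91) and the phosphatase gene Ptpn6 (0.91), and for Jak3 they were Srek1 (0.70), Lyst (0.69) and Birc2 (0.68). Among the members, Il4ra with Jak1 (0.81) and Stat6 with Jak1 (0.83) were the most alike, while Il13ra1 was opposed to Stat6 (-0.68) and Jak1 (-0.64). The sums share libraries and depth, and these values are descriptive.

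Within libraries, all 6 genes took a larger share of the UMIs (CPM) in cells called LZ than in cells called DZ. Of 11818 genes tested, 57.6% were called and 30.1% were higher in LZ (edgeR, library as a block), and 27.5% lower. The zone calls are the authors' and come with no stated method, so it is not known whether any of the 6 genes entered them. LZ cells carried fewer UMIs than DZ cells in every library, and in UMIs per cell the direction did not hold for all 6 genes. The ratio of UMIs per cell, LZ to DZ, was above 1 in 6 of 6 libraries for Il4ra (1.12 to 1.38), Il2rg (1.25 to 1.83) and Il13ra1 (1.09 to 4.30). It was 0.975 to 1.17 for Stat6, below 1 in 4 of 6 libraries for Jak3 (0.782 to 1.11) and below 1 in 6 of 6 for Jak1 (0.888 to 0.991). The part of the erythroid RNA of day 7 DZ cells in the zone differences was not tested.

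Il4ra ran from 44.0 to 77.7 CPM in DZ (median 54.4) and from 66.1 to 130 in LZ (median 96.2). LZ was higher in 6 of 6 libraries, although the ranges of the zones overlapped between libraries. The log2 difference was 0.66 ± 0.05 (SE, 6 libraries; edgeR adjusted p = 1.57e-07), and within libraries it ran from 0.45 in the control chimaera to 0.98 in the first day 7 library. With G1 cells alone it was 0.30, and the control chimaera then pointed the other way (-0.11).

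Il2rg ran from 55.3 to 144 in DZ (median 129) and from 114 to 302 in LZ (median 232), higher in LZ in 6 of 6 libraries. The log2 difference was 0.92 ± 0.06 (edgeR adjusted p = 6.34e-08) and was 0.92 with G1 cells alone too. The zone difference of the gamma chain was thus as large within 1 phase, whereas that of the alpha chain was smaller there.

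Stat6 ran from 21.9 to 39.4 in DZ and 26.7 to 56.6 in LZ, a log2 difference of 0.38 ± 0.04 (edgeR adjusted p = 3.68e-06) that was 0.33 with G1 cells alone, where the control chimaera pointed the other way (-0.10). Jak1 ran from 154 to 179 in DZ and 179 to 227 in LZ, with a smaller log2 difference of 0.23 ± 0.03 (edgeR adjusted p = 2.55e-05). With G1 cells alone the Jak1 difference was 0.10 and did not pass (edgeR adjusted p = 0.175). Both genes were higher in LZ in 6 of 6 libraries over all cells.

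Jak3 ran from 15.9 to 45.4 in DZ and 17.5 to 49.2 in LZ, a log2 difference of 0.23 ± 0.06 (edgeR adjusted p = 0.00504), again higher in 6 of 6. With G1 cells alone it rose to 0.58. Il13ra1 had a log2 difference of 1.51 ± 0.19 (edgeR adjusted p = 2.33e-05), which rests mostly on the day 7 libraries (2.60 against 12.8 and 7.56 against 19.1 CPM in DZ and LZ). Summed plasma markers were also higher in LZ there (5836 against 2700 and 5571 against 2852), and without the plasma-like clusters the Il13ra1 difference was 1.01.

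**Figure D3:**
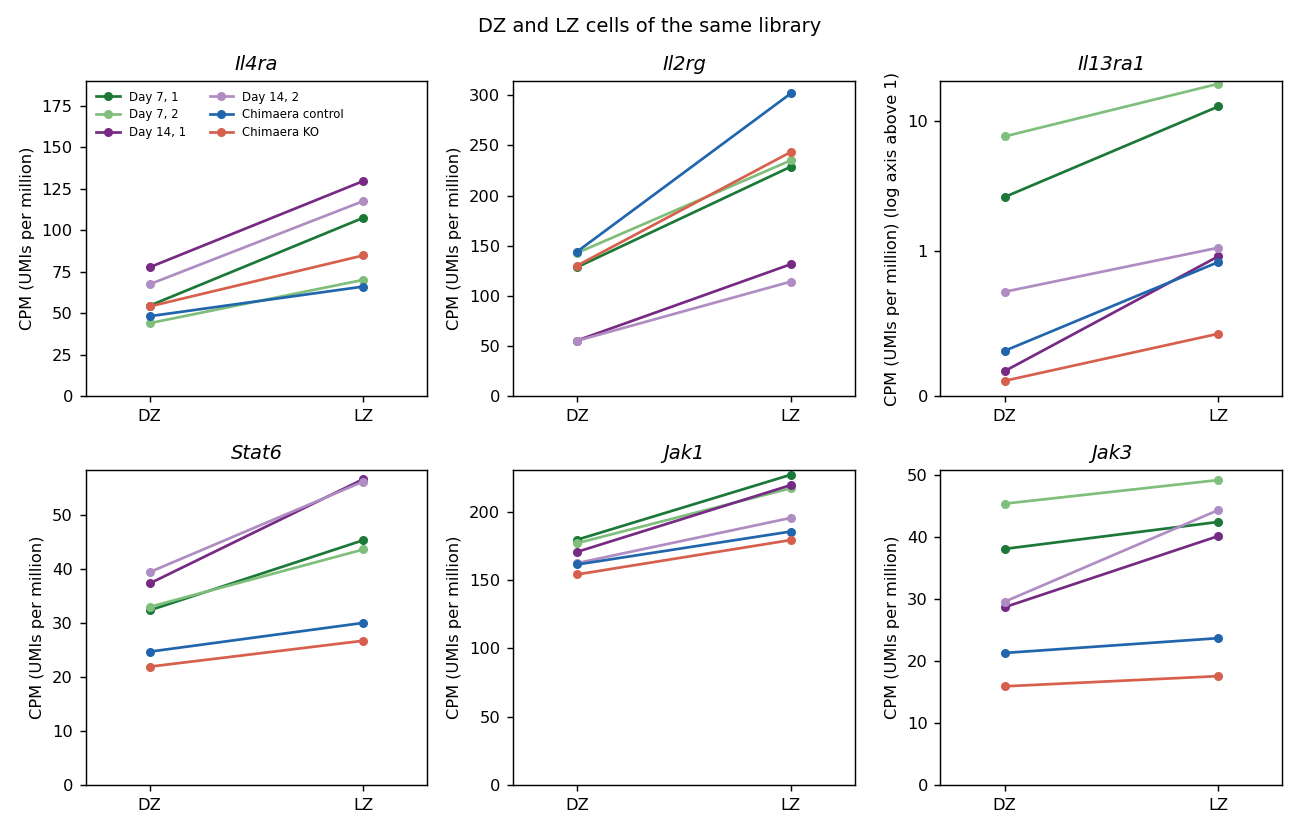
Level of each gene (CPM) in DZ and LZ cells, with a line joining the 2 zones of a library; the Il13ra1 axis is linear to 1 and logarithmic above. All 36 lines rise from DZ to LZ, and Il2rg rises most steeply among the well-counted genes (median 129 to 232).

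Of 49 other genes of the pathway, 44 were tested, with 24 higher and 8 lower in LZ and a median log2 difference of 0.32, against 0.01 over all genes. The share called was 72.7%, against 57.6% of all genes (30.1% higher and 27.5% lower). With G1 cells alone it was 67.5% against 40%. Of the 6 other receptors of the gamma chain family, 5 were higher in LZ, among them Il21r (0.86), the IL-21 receptor, while Il7r was lower at a mean of only 0.137 CPM. Most of those called higher were low too. Over all cells the group means ran from 0.163 to 0.927 CPM for Il2ra and from 0.759 to 2.18 for Il15ra. They ran from 1.59 to 11.5 for Il2rb and from 6.52 to 12.1 for Il9r. Of 6 other STAT genes 4 were higher and Stat5b was lower (-0.18), and of 9 target genes 7 were higher and Bcl6, the master regulator of GC B cells, was lower (-0.19 ± 0.06, edgeR adjusted p = 0.0164). Among list genes at 20 CPM or more, the largest differences were those of Il4i1 (2.17 ± 0.06), a secreted oxidase of phenylalanine, the AP-1 factor Batf (1.43 ± 0.07) and Fcer2a (1.32 ± 0.06), the gene of CD23. The targets Il4i1, Fcer2a and Cd86 are also light zone markers in the list used here to name clusters. It is not known whether they entered the zone calls, so their rise in LZ may be built into those calls.

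The adaptors and cofactors did not share that direction. Of 5 adaptors tested none was higher and Shc1 was lower (-0.38 ± 0.04, edgeR adjusted p = 7.74e-06). Of 4 STAT6 cofactors 3 were lower, Ncoa1 (-0.19), Crebbp (-0.15) and Ep300 (-0.09), and Parp14 (0.31) was higher. Tyk2 (0.37), a kinase related to the JAKs of the receptor, was higher, and Jak2 (0.10) was not called. Of 12 feedback genes and phosphatases 6 were higher, such as Socs1 (0.52), Socs3 (1.55) and Ptpn6 (0.37), all of which restrain cytokine signalling, 1 was lower and 5 were not called. The ligand genes Il4 and Il13 and the decoy Il13ra2 were too low to be tested.

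Cells called G2M, the phase before and during division, were compared with G1 cells of the same library. In CPM, Il4ra, Il2rg, Il13ra1, Stat6 and Jak1 were lower in G2M and Jak3 was slightly higher. Of 11429 genes tested, 60.2% were called, 28.6% higher and 31.6% lower in G2M (edgeR, library as a block). Without scaling beyond the totals the split was 2607 higher and 4446 lower, against 3268 and 3608. G2M cells held more UMIs than G1 cells in every library, and in UMIs per cell some genes went the other way. The ratio of UMIs per cell, G2M to G1, was 1.12 to 1.38 for Stat6, 1.31 to 1.84 for Jak3 and 0.968 to 1.25 for Jak1, the last above 1 in 5 of 6 libraries. For Il4ra it was 0.704 to 0.878, for Il13ra1 0.157 to 0.897 and for Il2rg 0.643 to 1.03, so only Il4ra and Il13ra1 were lower per cell in 6 of 6 libraries.

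Il4ra fell from 70.6 to 127 CPM in G1 (median 96.9) to 38.6 to 66.6 in G2M (median 50.4), and the 2 ranges did not overlap. It was lower in G2M in 6 of 6 libraries. The log2 difference was -0.88 ± 0.04 (edgeR adjusted p = 3.79e-12), and it was -0.70 with DZ cells alone and -0.68 with LZ cells alone. S phase cells lay between, from 45.4 to 90.6 (median 60.7), with a log2 difference to G1 of -0.56 ± 0.04 (edgeR adjusted p = 2.88e-09; 63.3% of genes called, 29.1% higher and 34.2% lower).

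Il2rg ran from 105 to 287 in G1 (median 213) and from 53.9 to 156 in G2M (median 134), a log2 difference of -0.74 ± 0.06 (edgeR adjusted p = 3.61e-09). It was lower in 6 of 6 libraries over all cells, and S phase was lower than G1 too (-0.62 ± 0.06, edgeR adjusted p = 4.27e-08). Within a zone the pooled difference was smaller: it was -0.11 with DZ cells alone (edgeR adjusted p = 0.106) and 0.01 with LZ cells alone (adjusted p = 0.938), where G2M cells numbered 4 to 102 a library. The libraries differed within DZ, with -0.43 and -0.32 in the day 14 pair, -0.13 and -0.22 in the control and KO chimaeras, and 0.02 and 0.09 in the day 7 pair. Il4ra kept its phase difference within both zones and Il2rg did not pass the test within either.

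Jak1 was lower in G2M by a log2 of -0.32 ± 0.03 (edgeR adjusted p = 1.96e-07), from a median of 209 to 154, and by -0.29 and -0.28 within DZ and LZ. Stat6 was lower by -0.16 ± 0.04 (edgeR adjusted p = 0.00445), but with DZ cells alone the difference was 0.00 and with LZ cells alone it turned to 0.63 (adjusted p = 0.00024). Stat6 had its lowest level in S phase, at a median of 31.6 against 41.9 in G1, a log2 difference of -0.40 ± 0.04 (edgeR adjusted p = 3.45e-07).

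Jak3 was at a median of 35.3 in G1 and 32.9 in G2M, with 4 of 6 libraries higher in G2M and the day 14 pair lower. The log2 difference was 0.15 ± 0.05 (edgeR adjusted p = 0.0103). It was 0.52 with DZ cells alone and 0.50 with LZ cells alone, and -0.06 in cells thinned to 1000 UMIs (edgeR adjusted p = 0.704). It did not pass without scaling beyond the totals (0.08, adjusted p = 0.165), without the second day 7 library (0.12, adjusted p = 0.058) or without the KO chimaera (0.12, adjusted p = 0.0687). In S phase Jak3 did not pass (-0.06 ± 0.05, edgeR adjusted p = 0.268).

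Il13ra1 was lower in G2M by -1.31 ± 0.22 (edgeR adjusted p = 4.1e-05) and in S by -1.03 ± 0.22 (adjusted p = 0.000429), on few UMIs outside day 7. With DZ cells alone the signs were opposite (0.30 and 0.35, adjusted p = 0.484 and 0.418), and without the plasma-like clusters the S difference was -0.23 (adjusted p = 0.306).

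**Figure D4:**
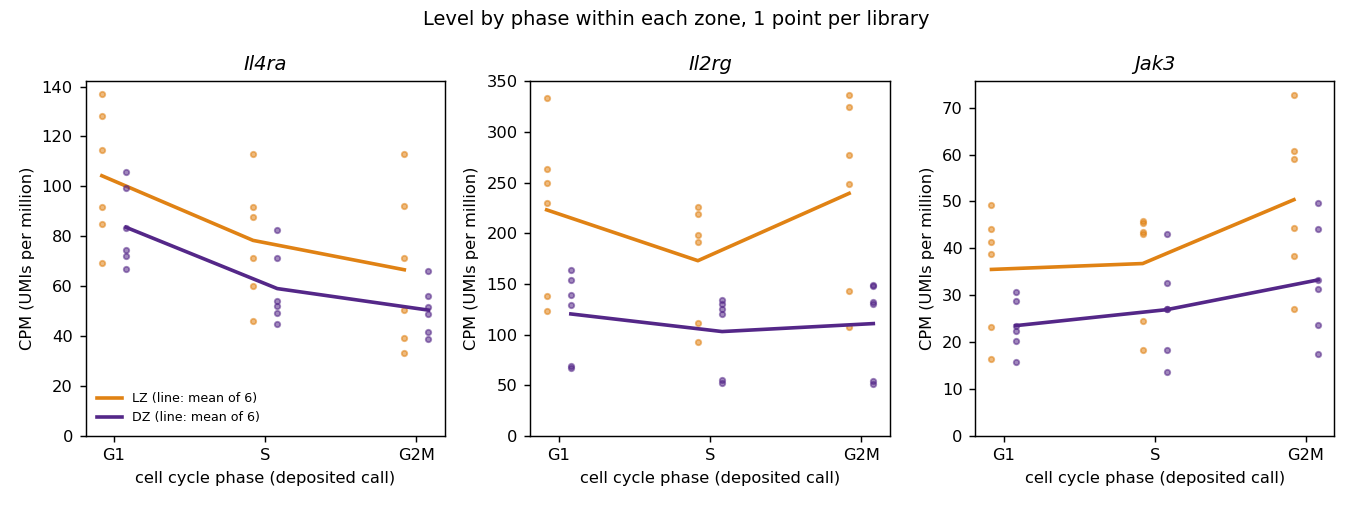
Levels (CPM, linear axes from 0) of Il4ra, Il2rg and Jak3 in G1, S and G2M cells within LZ (orange) and DZ (purple), 1 point per library and a line through the mean of 6. Il4ra falls from G1 to G2M in both zones, while Il2rg differs by zone (G1 median 240 in LZ and 134 in DZ) more than by phase.

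Of 41 other pathway genes tested, 6 were higher and 23 lower in G2M, with a median of -0.19 against -0.03 over all genes. The share called was 70.7%, against 60.2% of all genes (28.6% higher and 31.6% lower). Lower were Il4i1 (-1.43 ± 0.08), Fcer2a (-0.90 ± 0.06) and Il21r (-0.82 ± 0.04), and higher were Shc1 (0.60 ± 0.05), an adaptor to RAS signalling, Pias1 (0.31 ± 0.04), a STAT inhibitor, and the phosphatase gene Ptpn2 (0.22 ± 0.04). In S phase 29 of 41 were lower, with the largest differences at 20 CPM or more in Il4i1 (-1.34), Fcer2a (-0.94) and H2-Aa (-0.61), and 2 were higher, Ptpn2 (0.13) and Ptpn11 (0.12). The share called in S was 75.6%, against 63.3% of all genes (29.1% higher and 34.2% lower). Within a zone the shares of the list were near or below those of all genes. For G2M they were 35% against 36.1% in LZ and 43.6% against 43.3% in DZ. For S they were 50% against 49.5% in LZ and 43.6% against 50.6% in DZ.

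Whether the zone difference itself changed between the days was tested over the 4 wild type libraries. Il2rg was at 129 and 143 in DZ and 229 and 235 in LZ at day 7, and at 55.5 and 55.3 in DZ and 132 and 114 in LZ at day 14. Its LZ to DZ log2 difference was larger at day 14 by 0.34 ± 0.08 (edgeR adjusted p = 0.0244). For Jak3, at 38.1 and 45.4 in DZ and 42.4 and 49.2 in LZ at day 7 and at 28.7 and 29.5 in DZ and 40.1 and 44.3 in LZ at day 14, it was larger by 0.37 ± 0.09 (edgeR adjusted p = 0.0443).

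Over all 11478 genes tested, 2.29% were called, 1.18% with a larger and 1.11% with a smaller difference at day 14. Without scaling beyond the totals the split was 206 and 102, against 136 and 127. Both calls were lost without either day 14 library (Il2rg adjusted p = 0.839 and 0.186, Jak3 0.457 and 0.717) and with DESeq2 (0.208 and 0.724). Il4ra (-0.07 ± 0.09, edgeR adjusted p = 0.81), Il13ra1 (-0.44 ± 0.55, 0.803), Stat6 (0.08 ± 0.09, 0.776) and Jak1 (-0.04 ± 0.07, 0.883) did not pass. Of the other pathway genes H2-Aa (0.59 ± 0.05), Fcer2a (0.40 ± 0.08) and Ptpn6 (0.26 ± 0.06) had a larger and Xbp1 (-0.50 ± 0.08), a regulator of secretory cells, a smaller difference at day 14.

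Between the days, 42 other pathway genes were tested, with 16 higher and 15 lower at day 14 and a median of -0.09 against 0.04 over all genes. The share called, 73.8%, was near the 67.9% of all genes. The 4 STAT6 cofactors were all higher, with Crebbp (1.0 ± 0.06) and Ep300 (0.97 ± 0.10) leading, as was the kinase Jak2 (1.41 ± 0.08). Of 8 target genes tested 6 were lower, led by H2-Aa (-1.97 ± 0.09) and Xbp1 (-1.55 ± 0.06), and so was the feedback inhibitor Socs1 (-1.60 ± 0.11). The chimaeras, outside this test, held Jak2 at 10.5 and 12.5 CPM, nearer to day 7 (15.7 and 14.6) than to day 14 (47.6 and 43.7). For Crebbp too they were at 58.8 and 58.4, against 54.4 and 51.2 at day 7 and 121 and 120 at day 14. In Jak2 and Crebbp the wild type day 14 pair thus stood apart from the other libraries of its day. Other list genes went the other way. Il2rb in the chimaeras (3.42 in control and 1.59 in KO) was nearer to day 14 (mean 2.04) than to day 7 (11.5). The same held for Socs3 (4.68 and 2.28, against 3.31 and 9.19).

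The chimaeras compare donor GC B cells from hosts with and without Il4ra in Ccl19-lineage cells. With 1 library a group there is no test, and the intervals cover counting error only. In KO hosts the donor B cells had a slightly higher level of Il4ra, 64.9 against 56.1 CPM, a log2 ratio of 0.21 (exact 95% interval 0.14 to 0.28). The 2 wild type day 14 libraries differed by -0.18 in the same gene, about as much.

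Il2rg was lower in the KO library, at 166 against 203, a log2 ratio of -0.29 (-0.33 to -0.25), and the wild type pair differed by -0.13. Jak3 was at 16.3 against 21.9, a log2 ratio of -0.43 (-0.55 to -0.31), beside 0.07 between the wild type pair. Stat6 (-0.18, -0.29 to -0.08) and Jak1 (-0.08, -0.12 to -0.04) were lower by small amounts, beside 0.04 and -0.11. Il13ra1 had 12 UMIs in KO and 33 in control, a ratio of -1.41 with an interval from -2.50 to -0.42. Plasma-like cells were 1.86% of KO and 3.58% of control cells, and summed plasma markers were at 2601 and 3806 CPM. With equal cluster shares the Il13ra1 ratio was -0.96.

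Over all cells, no member at 20 CPM in either library passed a log2 ratio of 0.5, and 1.54% of 5055 such genes did, 0.574% higher and 0.969% lower. By cluster the difference was uneven. In memory precursor-like cells (945 in KO, 1304 in control) Il4ra was at 80.1 against 52.4, a log2 ratio of 0.61 (0.45 to 0.77), and Il2rg at 264 against 373, a ratio of -0.50 (-0.57 to -0.42). In light zone-like cells Il4ra was at 99.8 against 98.0 (0.03, -0.12 to 0.17) and Il2rg at 222 against 241 (-0.12, -0.22 to -0.03).

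In the memory precursor-like cluster of the wild type day 14 pair the same ratios were -0.26 (-0.58 to 0.05) for Il4ra and -0.14 (-0.33 to 0.06) for Il2rg. Jak3 was lower in KO in 8 of 8 clusters, with ratios from -0.72 to -0.28. These clusters are parts of the same control and KO library, so they do not replicate the difference. Summed memory precursor markers of the memory precursor-like cluster were lower in KO (1347 against 1737 CPM) and light zone markers higher (1772 against 1307). The light zone sum includes Il4i1 and Fcer2a, which were themselves higher in KO (below), so it is not separate from their difference. The part of these shifts in the Il4ra and Il2rg ratios was not tested. With the 8 clusters given equal shares in both libraries, the ratio over all cells was 0.20 for Il4ra and -0.23 for Il2rg.

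**Figure D5:**
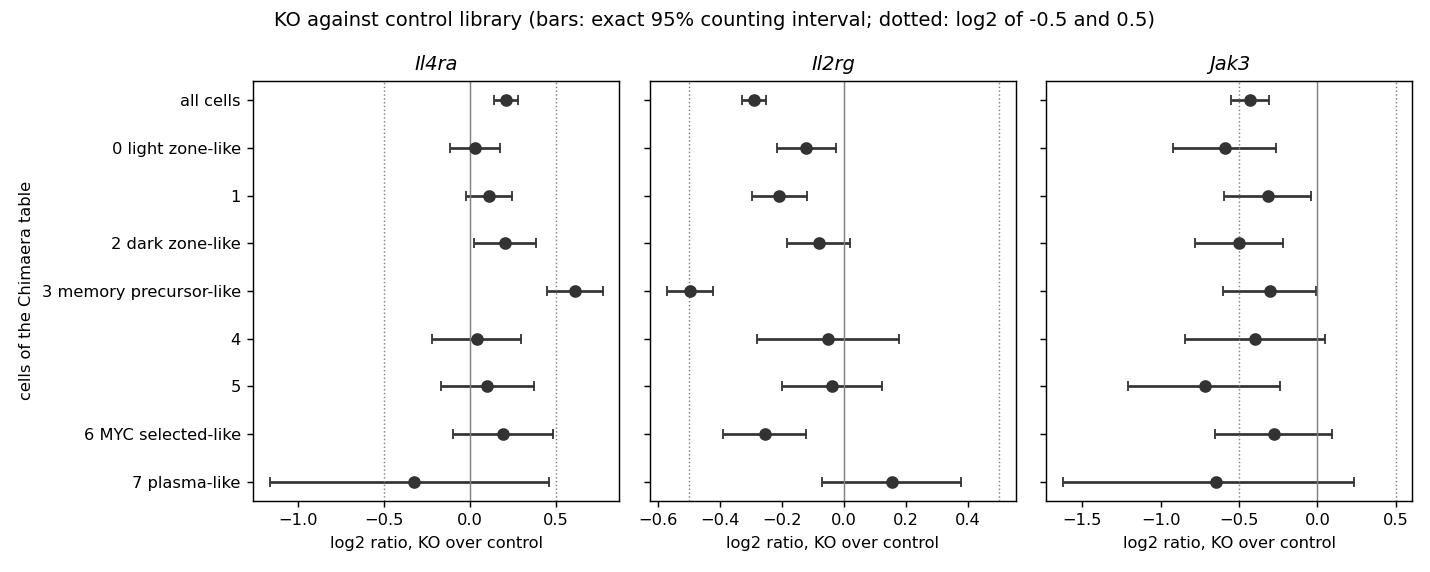
Log2 ratio of CPM, KO over control library, for Il4ra, Il2rg and Jak3 over all cells and in each deposited cluster, with exact 95% counting intervals; dotted lines mark -0.5 and 0.5. The memory precursor-like cluster lies farthest from 0 for Il2rg (-0.50) and, among clusters, farthest above 0 for Il4ra (0.61).

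Of 26 other pathway genes at 20 CPM, 9 were above and 17 below an equal level in KO, with a median of -0.06 against 0.00 over all genes. Of all 5055 genes at 20 CPM in either library, 1.54% passed the fold, 0.574% higher and 0.969% lower. The list was chosen with earlier results of these data known, so its count is descriptive. The 3 list genes past the fold were all higher: Fcer2a, at 195 against 111 (0.81, 0.77 to 0.86), the feedback inhibitor Socs1, at 70.9 against 46.2 (0.62, 0.55 to 0.69), and Il4i1, at 193 against 136 (0.51, 0.47 to 0.55). All 3 are known to be induced by IL-4. The other listed targets at 20 CPM did not pass the fold and went both ways. Bcl6 (37.5 in KO against 41.5) and Batf (36.9 against 42.1) were lower. Cd86 (61.8 against 49.2), Xbp1 (225 against 220) and H2-Aa (3307 against 3156) were higher. Whether the response to IL-4 differed was not tested. Among memory precursor-like cells the Socs1 level was 122 against 34.7 (1.81, 1.64 to 1.98) and Il4i1 at 419 against 174 (1.27, 1.19 to 1.35). In the wild type pair the ratios over all cells were 0.01 for Socs1, 0.10 for Il4i1 and -0.40 for Fcer2a.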

How the data were processed

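The authors deposited UMI counts per gene and cell, not normalised, in 3 tables, with a cell table of library, zone, phase and cluster. The submitters' processing notes name Cell Ranger, Seurat and mm10, and how zones, phases and clusters were called is not given in the sources used here. The 6 genes, the 49-gene pathway list, the comparisons and the markers were chosen with earlier results of these data known. All deposited cells were kept, and no doublets were removed. Counts were summed per library and zone, phase or cluster, and cells of unknown zone (0.812% to 8.0% of cells at day 14 and in the chimaeras) stayed out of the zone comparisons. Tests used edgeR 4.0.16 (R 4.3.3; TMM scaling, filterByExpr, quasi-likelihood, Benjamini-Hochberg over all genes tested, threshold 0.05). All 6 genes passed the filter in every fit. Standard errors were derived from the F statistic. DESeq2 1.42.0 was an alternative. The fits were tested on simulated counts. Intervals are exact, at 95%, and cover counting error only.

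Named genes were the 6 members and, in each comparison, up to 3 pathway genes per direction with the largest called difference at 20 CPM or more, and for each member the 3 genes of highest Pearson r of log2(CPM + 1). Other pathway genes are named, after their values were seen, to show which members of a part of the list moved. Promoter sequences matched all 6 genes by symbol.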

Additional observations from a re-analysis of the deposited data

Results flagged for a closer look

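A difference between the days in the size of the LZ to DZ difference was found by its own test, over 4 wild type libraries, for 6 of the genes named. The LZ to DZ log2 difference was larger at day 14 by 0.34 for Il2rg, by 0.37 for Jak3, by 0.59 for H2-Aa, by 0.40 for Fcer2a and by 0.26 for Ptpn6, and it was smaller at day 14 for Xbp1 (-0.50). The calls for Il2rg and Jak3 were lost when either day 14 library was left out. No group held 4 or more libraries, so single libraries were not screened as outliers.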

How the results depend on the processing

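Of the log2 differences of the 6 genes under the alternatives, 86 kept direction and call between the days, 90 between the zones, 81 for G2M, 87 for S and 55 for the change of the zone difference with day; none turned between the zones. Calls of genes fell in cells thinned to 1000 UMIs, to 3964 from 6803 between the zones (pathway list 21 from 32), 4106 from 6876 for G2M and 4208 from 7234 for S. Thinning kept 1012 and 2530 cells at day 7, 8773 and 10147 at day 14, 7998 (control) and 7300 (KO).

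Without the library block ("no replicate block"), the zone fit called 1048 genes, 1 of the 6 members and 7 of the list, the G2M fit 1406, 1 and 7, and the S fit 1438, 1 and 4. Between the days, a block on the replicate number called 4328 genes higher and 4068 lower, and Il4ra passed (adjusted p = 0.00628). Over 11971 genes, deviations of same-numbered libraries had r = 0.17, and 2 pairs are too few to tell whether the numbers pair the libraries.

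With G1 cells alone the zone fit called 4137 genes. With LZ cells alone G2M called 3722 genes (36.1%) and 14 of the list (35%), and S called 20 of the list (50%, against 49.5% of all genes); with DZ cells alone G2M called 3 members, 4636 genes (43.3%) and 17 of the list (43.6%), and S called 17 of the list (43.6%, against 50.6%). G2M differences then turned for Il2rg in LZ (0.013), Stat6 in LZ (0.63) and DZ (0.0023) and Il13ra1 in DZ (0.30), and S differences for Il13ra1 in DZ (0.35) and Jak3 in LZ (0.027) and DZ (0.23). Thinned cells turned Stat6 between the days (-0.012) and Jak3 in G2M (-0.060). The cause was not tested.

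The change of the zone difference with day was the least stable: from 263 genes, 2 members and 4 list genes, DESeq2 called 26, 0 and 2, thinned cells 54, 0 and 2, leaving out the plasma-like clusters (added after seeing the data) 114, 1 and 1, and no filter on low counts 401 genes. Leaving out 1 library gave 26 to 1223 genes, 0 to 2 members and 1 to 13 list genes. Its uncalled values turned for Stat6 in thinned cells (-0.063) and Jak1 without scaling (0.00055) or thinned (0.24), and with 1 library left out they ran from -0.19 to 0.10 for Il4ra, -1.15 to 0.84 for Il13ra1 and -0.092 to 0.022 for Jak1. Leaving out 1 library gave 6290 to 8849 genes and 3 to 5 members between the days, 6271 to 6564 and 6 between the zones, 6334 to 6646 and 5 to 6 for G2M, and 6644 to 6960 and 5 for S. An arm left with 1 library is assumed to vary like the other.

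Between the chimaeras, genes past the fold numbered 157 in LZ, 42 in DZ and 150 in G1, against 78, and pathway genes 1 in DZ, against 3. No member's ratio changed sign, and 43 of 48 values stayed within the counting interval. Il4ra ranged from 0.12 (cells weighted alike) to 0.36 (LZ). The 26599 symbols shared by the day 7 and day 14 tables were an alternative in the 2 comparisons of the days. A fit with immunoglobulin genes was not run, since the day 7 table lists 0 such genes.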
